A study of Mus musculus with 4 samples.

Results

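MHC class I molecules and the proteins that make peptides for them were followed in splenic PMN-MDSCs (polymorphonuclear myeloid-derived suppressor cells) through 10 genes of the 28585 listed. The genes were taken by name, for their function, in a list drawn up with earlier results of these data known: the classical heavy chains *H2-K1* and *H2-D1*, the light chain *B2m*, the peptide transport and loading genes *Tap1*, *Tap2* and *Tapbp*, the immunoproteasome subunits *Psmb8*, *Psmb9* and *Psmb10*, and the transactivator *Nlrc5*. Bulk RNA sequencing was performed on 4 libraries of splenic PMN-MDSCs taken on postnatal day 7. A total of 300000 isolated cells is stated, and it is listed for each library. The gate of the study for these cells was CD11b+ Ly6C lo/- Ly6G+. Of the libraries, 2 came from DhpsΔLysm pups (Dhps fl/fl Lysm cre, labelled Dhps cko) and 2 from Dhps fl/fl pups (labelled Dhps flox). Both groups carry the floxed *Dhps* alleles on a C57BL/6J background, and only the DhpsΔLysm group carries the *Lysm* cre, which is active across the myeloid lineage and not in PMN-MDSCs alone. *Dhps* encodes deoxyhypusine synthase, the enzyme that starts the hypusination of eIF5A. The study used both sexes, and the labels give none for these libraries. The labels do not say whether replicates came from separate or pooled pups, so p-values measure only the spread between these libraries. Each library held RNA of *Xist*, which female cells express (16.3 to 27.5 FPKM), and of Y-linked genes (summed, 7.07 to 17.6 FPKM). Each therefore drew on pups of both sexes.

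The values are FPKM, fragments scaled to the length of the transcript and to all mapped fragments of the library, so that levels can be compared between genes. The FPKM summed to between 304281 and 319286 per library, and between 10611 and 10729 genes reached 1 FPKM. Steps between low values gave approximate depths of 29000000 to 32400000 mapped fragments. Markers of the labelled cell type were abundant, with *S100a9* between 24504 and 28033 FPKM and *Ly6g* between 184.8 and 241.6 FPKM. All 10 monocyte and macrophage markers were also detected in every library. Among them, *Ly6c2*, a gene of the Ly6C that the gate kept low, was at 158 to 192.2 FPKM and *C1qa* at 18.6 to 28.3 FPKM. The targeted gene *Dhps* was at 2.38 and 2.59 FPKM in DhpsΔLysm against 3.57 and 3.11 FPKM in Dhps fl/fl (values are in replicate order throughout; adjusted p = 0.63 by limma), so its transcript was still detected in every DhpsΔLysm library.

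Class I molecules display peptides from the cell's own cytosol to CD8+ T cells. Proteasomes cut the proteins, the TAP1-TAP2 transporter carries the peptides into the endoplasmic reticulum, and tapasin (*Tapbp*) holds an empty class I molecule next to the transporter until a peptide binds. Interferon exchanges the catalytic subunits of the proteasome for the inducible ones encoded by *Psmb8*, *Psmb9* and *Psmb10*. NLRC5 is the transactivator of this set of genes, and it acts through a protein complex on a promoter module made of S, X and Y boxes. Neutrophils and related cells carry class I on their surface, as nearly all nucleated cells do.

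The promoters are shown because the heavy chains and *B2m* share this module. RefSeq (GRCm38.p6) gave windows of 250 bases before to 50 bases after the annotated start for 8 of the 10 genes, without *Tap2* and *Nlrc5*. Letters were searched on both strands, and capitals mark every match to 1 of 6 motifs: GAAANNGAA and GAANNGAAA (interferon response element), TTCNNNGAA (gamma-activated site), GGGATTCCC (NF-κB site of class I genes), TGACG (X2 box) and CCAAT (Y box). GAANNGAAA and GGGATTCCC were added after the sequences had been seen. No matches overlapped in the 4 windows printed.

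*H2-K1*, chr17:34000284-34000583, minus strand, 1 of 2 annotated starts:
H2-K1: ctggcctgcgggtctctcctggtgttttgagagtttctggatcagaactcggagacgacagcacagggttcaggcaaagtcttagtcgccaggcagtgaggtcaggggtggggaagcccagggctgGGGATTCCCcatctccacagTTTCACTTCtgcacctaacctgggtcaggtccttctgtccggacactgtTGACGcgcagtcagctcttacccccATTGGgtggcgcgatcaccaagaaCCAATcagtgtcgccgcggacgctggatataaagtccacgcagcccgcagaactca
*H2-D1*, chr17:35262844-35263143, plus strand:
H2-D1: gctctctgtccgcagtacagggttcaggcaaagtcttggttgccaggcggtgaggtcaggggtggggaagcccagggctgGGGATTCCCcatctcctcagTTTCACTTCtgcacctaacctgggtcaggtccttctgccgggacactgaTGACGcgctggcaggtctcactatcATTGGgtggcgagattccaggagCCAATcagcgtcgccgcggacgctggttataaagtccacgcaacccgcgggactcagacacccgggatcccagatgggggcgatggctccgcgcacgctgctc
*B2m*, chr2:122147437-122147736, plus strand:
B2m: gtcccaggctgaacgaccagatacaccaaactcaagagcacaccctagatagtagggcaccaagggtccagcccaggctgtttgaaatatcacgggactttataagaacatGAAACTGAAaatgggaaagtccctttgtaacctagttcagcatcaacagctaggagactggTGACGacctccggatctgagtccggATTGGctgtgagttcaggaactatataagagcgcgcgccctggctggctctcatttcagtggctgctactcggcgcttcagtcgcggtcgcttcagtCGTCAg
*Psmb9*, chr17:34187281-34187580, minus strand, which shares 275 bases with the window of *Tap1* on the other strand:
Psmb9: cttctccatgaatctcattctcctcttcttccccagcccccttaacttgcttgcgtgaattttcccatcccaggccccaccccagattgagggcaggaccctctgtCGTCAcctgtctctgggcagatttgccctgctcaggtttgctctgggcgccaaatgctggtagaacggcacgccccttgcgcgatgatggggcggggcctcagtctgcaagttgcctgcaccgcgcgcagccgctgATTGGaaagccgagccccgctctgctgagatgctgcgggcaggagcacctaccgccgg

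In *H2-K1*, *H2-D1* and *B2m* alike, TGACG was followed by ATTGG (the Y box read on the other strand) after a gap of 20 bases. The TGACG began at base -55 from the start in *H2-K1*, -101 in *H2-D1* and -78 in *B2m*, and the ATTGG at -30, -76 and -53. This spacing, looked for after it had been seen in these windows, was present in 31 of all 32851 windows (0.094%), and 1 other gene of the lists used here, the class Ib gene *H2-M3*, held it. Single motifs were more common. TGACG was present in 20.8% of all windows and in 5 of the 8 genes, and CCAAT in 37.4% and in 6 of the 8. In both counts *Psmb9* and *Tap1* enter through the same site, in the bases their windows share. GAAANNGAA (8.6% of all windows) matched *B2m* at -139, GAANNGAAA (7.5%) matched *H2-K1* at -104 and *H2-D1* at -150, and GGGATTCCC (0.4%) matched *H2-K1* at -124 and *H2-D1* at -170. TTCNNNGAA (8.3%) matched *Psmb8* alone. The window of *Psmb10* held none of the 6 motifs. A match describes letters and does not show binding.

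All 10 genes were detected in every library. *B2m* was the most abundant in each, followed by *H2-D1*, and *Nlrc5* was the least abundant. *Tap2*, *Tap1*, *Psmb8*, *Psmb9* and *Psmb10* kept the same order in all libraries, whereas *H2-K1* and *Tapbp*, at 36.4 to 49.6 and 35.2 to 43.7 FPKM, exchanged the third and the fourth place in Dhps fl/fl replicate 2. The ranges of *Psmb8* (7.54 to 9.48 FPKM) and *Psmb9* (6.48 to 8.55 FPKM) also overlapped across libraries. At the approximate depths, the values stood for about 12000 to 19000 fragments for *H2-D1* and *B2m*, for about 190 to 220 for *Psmb10* and for about 79 to 210 for *Nlrc5*, so counting error weighed most on *Nlrc5*.

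**Figure D1:**
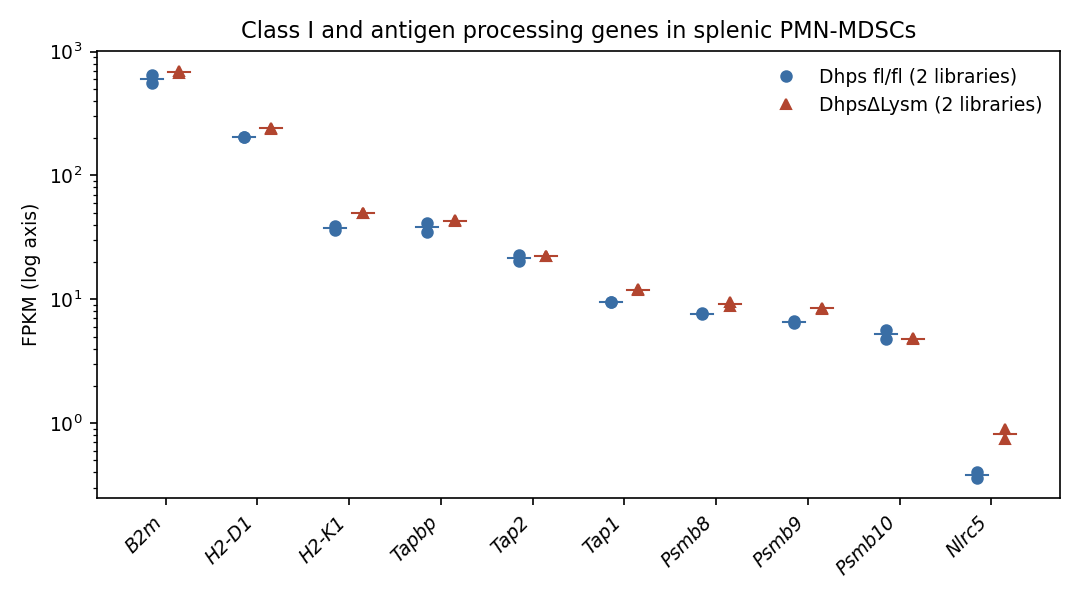
FPKM of the 10 genes on a log axis, with circles for the 2 Dhps fl/fl libraries, triangles for the 2 DhpsΔLysm libraries and short lines for the group means. Levels run from 0.36 FPKM (*Nlrc5*) to 696.4 FPKM (*B2m*), and the triangles lie above the circles for all genes except *Tap2* and *Psmb10*.

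*H2-K1* (ENSMUSG00000061232), which encodes the K heavy chain that presents peptide, lies on the minus strand of chromosome 17 of GRCm38 from 33996017 to 34000347 in GENCODE M21. It was at 49.4 and 49.6 FPKM in the DhpsΔLysm libraries against 36.4 and 38.9 FPKM in the Dhps fl/fl libraries. Both DhpsΔLysm libraries lay above both Dhps fl/fl libraries, and the gap was wider than the spread within either group. Relative to Dhps fl/fl the mean was 131.5%, a log2 fold change of 0.40 (standard error 0.06; limma, Benjamini-Hochberg adjusted p = 0.41). In bulk libraries, more cells that express a gene and more RNA per cell cannot be told apart.

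*H2-D1* (ENSMUSG00000073411; plus strand of chromosome 17, 35262730 to 35267499), the gene of the D heavy chain, was at 236.5 and 243.8 FPKM in DhpsΔLysm against 204.1 and 204.5 FPKM in Dhps fl/fl. The groups did not overlap. The difference on the log2 scale was 0.23 ± 0.05 (standard error; limma adjusted p = 0.51). Summed, the heavy chains came to 289.7 ± 5.3 FPKM in DhpsΔLysm and 241.9 ± 2.1 FPKM in Dhps fl/fl (mean ± SD, n = 2 each). The ratio of *H2-D1* to *H2-K1* was 4.79 and 4.92 in DhpsΔLysm and 5.61 and 5.26 in Dhps fl/fl, so it was lower in both DhpsΔLysm libraries. An exact permutation test of 2 libraries against 2 gave a two-sided p of 0.33 for this ratio, the smallest it can give. The heavy chain genes are similar in sequence: 8.1% of the 50-base stretches of the longest *H2-K1* transcript and 14.3% of those of *H2-D1* also occur in transcripts of other genes, and reads from such stretches could be split between them.

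*B2m* (ENSMUSG00000060802; plus strand of chromosome 2, 122147686 to 122153083) encodes β2-microglobulin, the light chain that class I heavy chains generally need to reach the surface. It was at 673.1 and 696.4 FPKM in DhpsΔLysm against 644.9 and 554.0 FPKM in Dhps fl/fl. Both DhpsΔLysm libraries were higher, but Dhps fl/fl replicates 1 and 2 differed from each other by more than Dhps fl/fl replicate 1 differed from either DhpsΔLysm library. The log2 fold change was 0.20, with a 95% interval from -0.04 to 0.43 (limma adjusted p = 0.76). It was 0.31 without Dhps fl/fl replicate 1, 0.086 without Dhps fl/fl replicate 2 and 0.071 after quantile normalization. *B2m* stood at 2.35 and 2.37 times the summed heavy chains in DhpsΔLysm and at 2.68 and 2.28 times in Dhps fl/fl, ratios that overlapped.

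*Tap1* (ENSMUSG00000037321; plus strand of chromosome 17, 34187553 to 34197225), one of the TAP transporter subunits, was at 11.85 and 12.01 FPKM in DhpsΔLysm against 9.49 and 9.57 FPKM in Dhps fl/fl. The libraries of a genotype lay close together and the genotypes apart. The difference on the log2 scale was 0.32 ± 0.07 (standard error; limma adjusted p = 0.49). *Tap2* (ENSMUSG00000024339; plus strand of chromosome 17, 34203527 to 34216321), its partner subunit, was at 22.2 and 22.3 FPKM in DhpsΔLysm against 20.5 and 22.9 FPKM in Dhps fl/fl, so that the groups overlapped. The log2 fold change of *Tap2* was 0.04, with a 95% interval from -0.15 to 0.23. With Dhps fl/fl replicate 1 left out, it was -0.04. The ratio of *Tap2* to *Tap1* was 1.88 and 1.86 in DhpsΔLysm and 2.16 and 2.39 in Dhps fl/fl (exact permutation test, two-sided p = 0.33, the smallest possible). Exons of *Tap2* share 14.1% of their bases with *Gm15821* on the opposite strand, and the strand setting of the counting is not given in the sources used here.

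*Tapbp* (ENSMUSG00000024308; plus strand of chromosome 17, 33915899 to 33929292), the gene of tapasin, was at 43.7 and 42.5 FPKM in DhpsΔLysm against 35.2 and 41.2 FPKM in Dhps fl/fl. The groups did not overlap, although Dhps fl/fl replicate 2 lay nearer to the DhpsΔLysm libraries than to Dhps fl/fl replicate 1. Its log2 fold change was 0.18, with a 95% interval from -0.05 to 0.41 (limma adjusted p = 0.77). With Dhps fl/fl replicate 1 left out, the value was 0.064, and with replicate 2 left out it was 0.29. Of the exon bases of *Tapbp*, 29.0% are shared with other genes, 24.9% with *Gm19412* on the opposite strand (mean 0.1 FPKM) and 4.1% with *Zbtb22* on the same strand (mean 23.29 FPKM).

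*Psmb9* (ENSMUSG00000096727; minus strand of chromosome 17, 34181987 to 34187764) encodes the inducible β1i subunit and starts next to *Tap1*. It was at 8.55 and 8.42 FPKM in DhpsΔLysm against 6.48 and 6.72 FPKM in Dhps fl/fl. The genotypes were separated, and the difference on the log2 scale was 0.36 ± 0.08 (standard error; limma adjusted p = 0.50). In GENCODE M21, exons of *Psmb9* and *Tap1* share 212 bases on opposite strands, 5.8% of the exon bases of *Psmb9*.

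*Psmb8* (ENSMUSG00000024338; plus strand of chromosome 17, 34197721 to 34201454), the gene of the inducible β5i subunit, was at 8.88 and 9.48 FPKM in DhpsΔLysm against 7.54 and 7.74 FPKM in Dhps fl/fl. Here too the genotypes did not overlap. The difference on the log2 scale was 0.26 ± 0.08 (standard error; limma adjusted p = 0.63). *Gm20496*, listed at a mean of 0.002 FPKM, shares 14.7% of the exon bases of *Psmb8* on the opposite strand. *Psmb10* (ENSMUSG00000031897; minus strand of chromosome 8, 105935735 to 105938444), the gene of the inducible β2i subunit, was at 4.82 and 4.79 FPKM in DhpsΔLysm against 4.78 and 5.67 FPKM in Dhps fl/fl. It was the only one of the 10 genes with a lower mean in DhpsΔLysm, with overlapping groups and a log2 fold change of -0.11 (95% interval from -0.41 to 0.18, limma adjusted p = 0.87). Without Dhps fl/fl replicate 2 its log2 fold change was 0.007.

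Each inducible subunit takes the place of a constitutive one, PSMB8 that of PSMB5, PSMB9 that of PSMB6 and PSMB10 that of PSMB7. The constitutive genes were the more abundant of each pair in every library. Together, the inducible genes made up 31.6% and 30.6% of the FPKM of the 6 catalytic genes in DhpsΔLysm and 28.2% and 32.0% in Dhps fl/fl. These shares overlapped and differed by 1.02 percentage points between the group means (exact permutation test, two-sided p = 1). *Psmb9* made up 33.9% and 33.1% of its pair in DhpsΔLysm against 29.6% and 30.2% in Dhps fl/fl, whereas *Psmb10* made up 28.9% and 28.4% against 30.7% and 36.0%. For both pairs the exact permutation test gave the smallest p it can give, 0.33. The share of *Psmb8* in its pair overlapped between genotypes (31.2% and 29.7% against 25.8% and 31.1%). Of the constitutive genes, *Psmb7* had a log2 fold change of 0.20, *Psmb6* 0.12 and *Psmb5* 0.12, and 0 of the 3 passed an adjusted p of 0.05 in limma, with 1 (*Psmb7*) higher at an unadjusted p under 0.05, as were 4.72% of all genes tested.

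**Figure D2:**
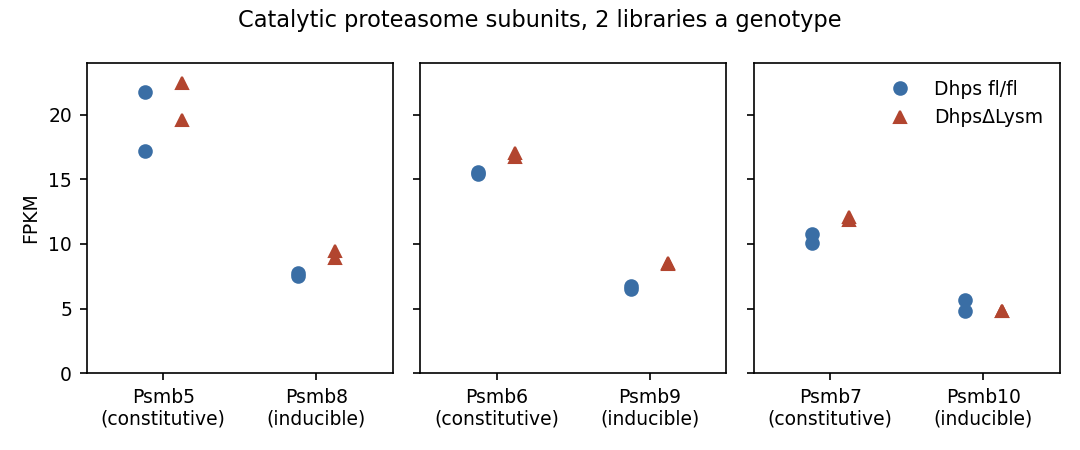
FPKM of each constitutive catalytic subunit beside the inducible subunit that replaces it, with circles for the 2 Dhps fl/fl libraries and triangles for the 2 DhpsΔLysm libraries. *Psmb8* and *Psmb9* are higher in both DhpsΔLysm libraries, whereas *Psmb10* lies at 4.78 to 5.67 FPKM with overlapping groups.

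*Nlrc5* (ENSMUSG00000074151; plus strand of chromosome 8, 94434356 to 94527272) had the largest log2 fold change of the 10 genes at the lowest level. It was at 0.75 and 0.89 FPKM in DhpsΔLysm against 0.40 and 0.36 FPKM in Dhps fl/fl, about 180 and 210 fragments against about 94 and 79. Both DhpsΔLysm libraries lay above both Dhps fl/fl libraries. Relative to Dhps fl/fl the mean was 215.8%, and the log2 fold change was 0.94 (standard error 0.24, 95% interval from 0.31 to 1.56, limma adjusted p = 0.56). On the log2(FPKM + 0.1) scale the change of so low a gene is understated, and it ran from 0.40 with a pseudocount of 1 to 1.09 with a pseudocount of 0.01.

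Over the 17948 genes tested with limma, 0 of the 10 genes had an adjusted p under 0.05, whereas 1 gene (0.00557%) did: *Gm20716*, a gene model outside this pathway that is named here after its values were seen. With any 1 of the 4 libraries left out, 0 genes passed. At an unadjusted p under 0.05, 6 of the 10 genes were higher in DhpsΔLysm and 0 were lower, where 4.72% of all genes tested were higher at that threshold. The 6 were *H2-K1*, *H2-D1*, *Tap1*, *Psmb8*, *Psmb9* and *Nlrc5*. In 8 of the 10 genes both DhpsΔLysm libraries lay above both Dhps fl/fl libraries, where 20.0% of all genes tested did so. The median log2 fold change was 0.25 for the 10 genes and 0.01 for all genes tested. Without DhpsΔLysm replicate 2, the number at an unadjusted p under 0.05 was 3 in place of 6, and the share of all genes was 2.46% in place of 4.72%.

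**Figure D3:**
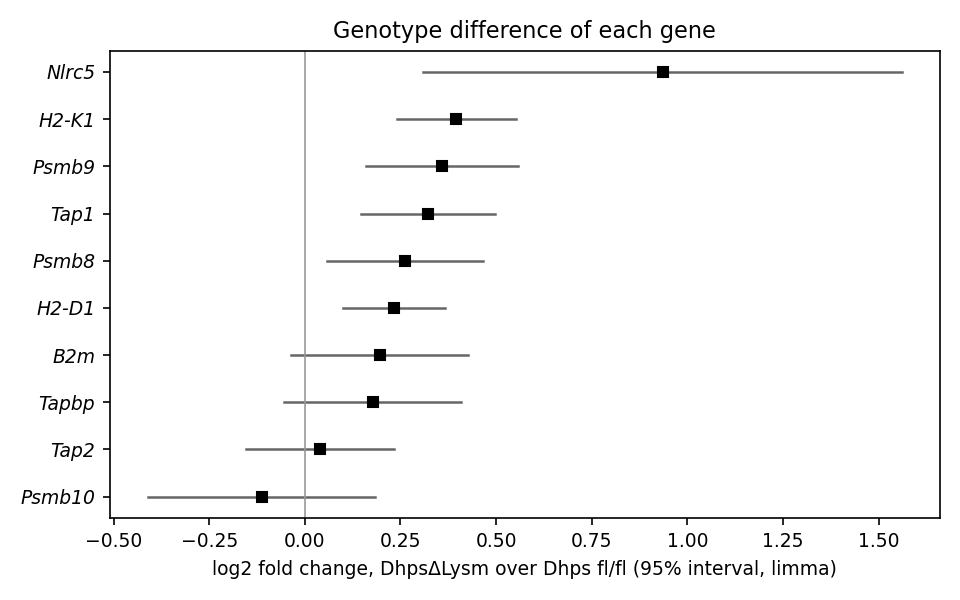
Log2 fold change of DhpsΔLysm over Dhps fl/fl for each of the 10 genes, with squares for the estimate and bars for the 95% interval from limma. The estimates run from -0.11 (*Psmb10*) to 0.94 (*Nlrc5*), and the intervals of *Psmb10*, *Tap2*, *Tapbp* and *B2m* include 0.

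Class Ib and class I-like heavy chains, most of which also pair with β2-microglobulin and which include the antigen-presenting H2-Q, H2-T and H2-M molecules, were measured as well. Of 20 such genes, 16 passed the filter on low values. Of these, 7 were higher and 0 lower in DhpsΔLysm at an unadjusted p under 0.05, against 4.72% higher among all genes tested, and 0 passed after adjustment in limma. Both DhpsΔLysm libraries lay above both Dhps fl/fl libraries for 12 of the 16, against 20.0% of all genes. The median log2 fold change was 0.32, against 0.01 for all genes. *H2-T23*, which encodes the ligand Qa-1 of NKG2A, was the most abundant, at 34.9 and 34.1 FPKM in DhpsΔLysm and 30.3 and 29.8 FPKM in Dhps fl/fl. *H2-T24* was at 22 and 22.59 FPKM against 17.9 and 15.8 FPKM (log2 fold change 0.41, standard error 0.08, limma adjusted p = 0.49). *H2-M3*, which presents N-formyl peptides and whose promoter window held the spaced X2 and Y letters, was at 2.29 and 1.64 FPKM against 1.16 and 1.11 FPKM. The *H2-Q6* and *H2-Q7* genes were at or below 1.26 FPKM in every library, and *H2-Q7* was at 0.79 and 0.77 FPKM against 0.34 and 0.39 FPKM. Many of these genes are close copies of each other, so reads could be split between them and their single values are uncertain. Among class I-like genes outside the H2 complex, *Cd1d1* had a log2 fold change of 0.10, *Fcgrt*, the neonatal Fc receptor, 0.20, and *Hfe*, a regulator of iron uptake, -0.14.

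Other chaperones and trimming enzymes that serve class I loading had log2 fold changes from -0.13 (*Lnpep*) to 0.25 (*Tapbpl*), with a median of 0.008. Of these 6 genes, 0 had an unadjusted p under 0.05, where 1257 of all 17948 genes tested did in either direction, so the count lies near the background. *Calr* (calreticulin), at 40.2 and 41.4 FPKM in DhpsΔLysm and 38.9 and 40.9 FPKM in Dhps fl/fl, had a log2 fold change of 0.03 with a 95% interval from -0.12 to 0.18. *Erap1*, which trims peptides in the endoplasmic reticulum, had a log2 fold change of -0.002 (95% interval from -0.27 to 0.27). *Tapbpl*, a peptide editor related to tapasin, was at 6.99 and 8.56 FPKM against 6.63 and 6.38 FPKM. Among the PA28 proteasome activator genes, *Psme1* had a log2 fold change of 0.22 (limma adjusted p = 0.58), *Psme2* 0.04 and *Psme3* -0.04.

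Factors upstream of class I genes were measured as well. *Irf1*, which binds interferon response elements, was at 18.6 and 21.1 FPKM in DhpsΔLysm against 17.7 and 17.8 FPKM in Dhps fl/fl, a log2 fold change of 0.16 (limma unadjusted p = 0.115). Among the receptor subunits and kinases of the interferon-γ pathway, *Ifngr1* (log2 fold change -0.03), *Jak1* (-0.03) and *Jak2* (-0.05) overlapped between the groups, whereas *Ifngr2* (0.12) did not. Of the 8 genes for factors that assemble on the X and Y boxes (*Rfx5*, *Rfxap*, *Rfxank*, *Nfya*, *Nfyb*, *Nfyc*, *Creb1* and *Atf1*), 0 had an unadjusted p under 0.05, again near the background of 1257 of 17948 genes. Their log2 fold changes ran from -0.11 (*Rfx5*) to 0.11 (*Rfxank*), with a median of -0.03.

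**Figure D4:**
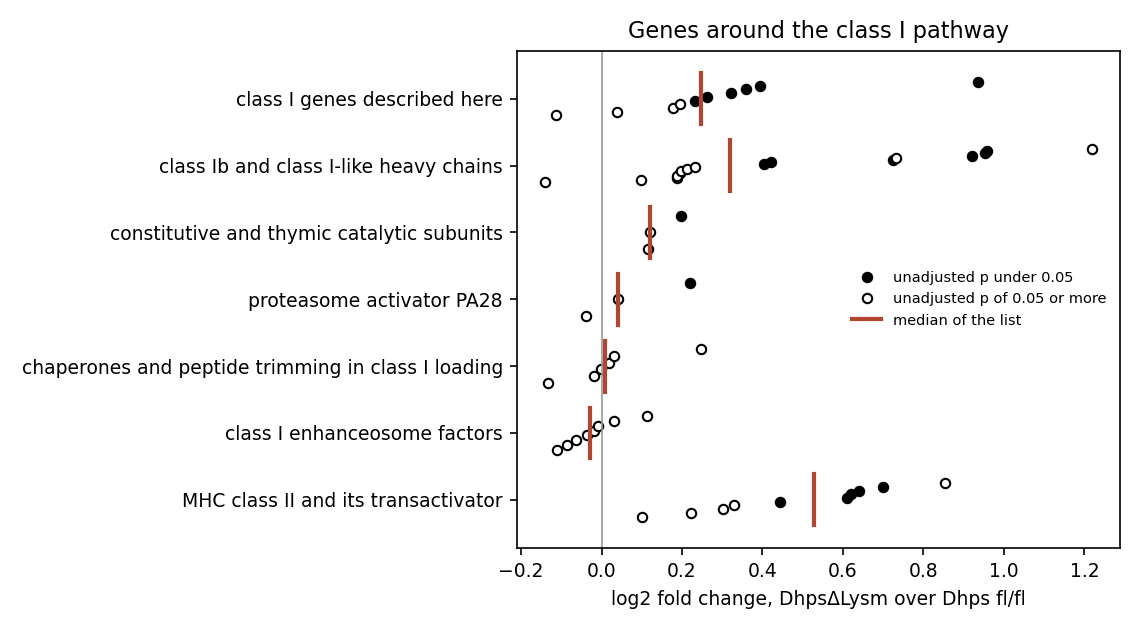
Log2 fold change of DhpsΔLysm over Dhps fl/fl for each gene tested in 7 lists, with filled circles for an unadjusted p under 0.05, open circles for the rest and a vertical line for the median of the list. The medians are 0.25 for the class I genes, 0.32 for class Ib and 0.53 for class II, against 0.008 for the chaperones and -0.03 for the enhanceosome factors.

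Of the class II genes, the markers of other cells and the sex-linked genes, 0 passed an adjusted p of 0.05 in limma. At an unadjusted p under 0.05, 5 of 10 class II genes were higher in DhpsΔLysm, against 4.72% of all genes tested. So were 5 of 8 B cell, 3 of 8 T cell and 5 of 10 monocyte and macrophage markers. Of dendritic cell, NK cell and erythroid markers 0 were, and of eosinophil and neutrophil markers 1 each. In these lists 0 genes were lower. Of the 5 sex-linked genes, 1 was higher and 4 were lower, where 410 of all 17948 genes were lower. Levels are given as values below. MHC class II genes, which professional antigen-presenting cells express, summed to 67.9 and 71.0 FPKM in DhpsΔLysm and 45.5 and 51.1 FPKM in Dhps fl/fl, and 10 of 10 tested had a positive log2 fold change. *Cd74*, the invariant chain, was the highest at 33.8 and 36.3 FPKM against 21.1 and 23.95 FPKM. *Ciita*, the class II transactivator and a relative of *Nlrc5*, was at 0.37 and 0.44 FPKM against 0.11 and 0.27 FPKM. The 8 B cell markers summed to 64.9 and 67.7 FPKM in DhpsΔLysm and to 41.5 and 50.8 FPKM in Dhps fl/fl, with 8 of 8 higher in the mean. The 8 T cell markers summed to 18.47 and 14.98 FPKM against 11.9 and 8.01 FPKM, and all 8 were higher in the mean. The 10 monocyte and macrophage markers summed to 356.8 and 352.9 FPKM against 293.1 and 290.9 FPKM, with 10 of 10 higher in the mean, and no B cell, T cell, or monocyte and macrophage marker was at 0 in any library. The 6 dendritic cell markers summed to 4.64 and 4.2 FPKM against 2.21 and 3.38 FPKM. The 6 NK cell markers summed to at most 1.34 FPKM in any library, and 4 of them were at 0 in at least 1. The 12 neutrophil markers differed by a median of 0.08 on the log2 scale, and *Ly6g* by 0.29. The 5 eosinophil markers summed to 12.1 and 10.5 FPKM against 8.34 and 8.78 FPKM, and the 6 erythroid markers to 451.8 and 541.5 FPKM against 368.8 and 553.1 FPKM. The 4 Y-linked genes summed to 7.07 and 8.07 FPKM in DhpsΔLysm and 17.6 and 15.6 FPKM in Dhps fl/fl, and *Xist* was at 27.5 and 20.3 FPKM against 16.3 and 17.2 FPKM, so that 0 of these 5 genes overlapped between the groups. Among all 17948 genes tested, 20.0% lay above and 2879 genes lay below in both DhpsΔLysm libraries. The part of other cells and of sex in the class I values was not tested, and in these 4 libraries genotype cannot be told apart from what set the sex-linked genes apart.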

How the data were processed

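Total RNA of sorted PMN-MDSCs was sequenced by the authors, who filtered reads with Cutadapt, aligned them with HISAT2 (mm10 in the submitters' notes) and computed gene values with StringTie and ballgown. The deposited values are FPKM by the authors, rounded, with 1 file per library. The annotation release and the strand setting are not given in the sources used here. Coordinates were taken from GENCODE M21 (GRCm38), which holds 28511 of the identifiers (74 are not in it).

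The members and lists were chosen with earlier results of these data known. Log2(FPKM + 0.1) was compared between genotypes with limma 3.58.1 (R 4.3.3, mean-variance trend, no block) where the 4 libraries averaged 0.1 FPKM or more, and p-values were adjusted over all 17948 genes by Benjamini-Hochberg at 0.05. All 10 members passed the filter. Exact permutation tests were two-sided and cannot go below 0.33. Every gene of the lists was eligible to be named, but a gene of the interferon-γ list is not reported here, nor are the counts of that list. No gene was chosen for the likeness of its pattern, since there are 4 libraries.

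Depth was estimated from genes with 1 transcript of 1 exon, over a limited range of depths. Between 42.8% and 46.8% of low values lay within 0.15 of a whole fragment (chance gives 30%), so whole reads were not recovered and count tests were not run. Fragments per gene use the longest transcript and are approximate. The pseudocount, the filter, the scaling and the variance model were each varied, a replicate block was added, and each library was left out. Python 3.11.15, numpy 2.4.6, pandas 2.3.3 and matplotlib 3.10.9 were used for the other steps.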

Additional observations from a re-analysis of the deposited data

How the results depend on the processing

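With 2 libraries a genotype and adjustment over all genes, 0 of the 10 class I genes had an adjusted p under 0.05 in limma or in any alternative run. The lowest adjusted p of any of them was 0.20, for *H2-K1*, and the highest was 0.996, for *Tap2*. The number of all genes called, 1, was 0 with a pseudocount of 0.01, without a filter, with a replicate block and without any 1 of the 4 libraries (0 to 0), 2 with TPM scaling, quantile normalization or robust limma, 4 among genes of at least 1 FPKM, and 12 with each gene's own spread. The number of class I genes at an unadjusted p under 0.05, 6, was 3 to 6 with a library left out (2.25% to 5.3% of all genes), 5 of the 9 genes left at a mean of at least 1 FPKM (5.62%), 4 without the trend (4.24%) and 6 with the replicate block (4.01%), against 4.72% of all genes in the reported fit. Their median log2 fold change, 0.25, was 0.22 with TPM scaling and with quantile normalization, which moved the median of all genes to -0.02 and -0.01, and 0.21 to 0.29 with a library left out. The sign turned for *Tap2* (-0.038 without Dhps fl/fl replicate 1, and up to 0.116 with another library left out) and *Psmb10* (0.007 without Dhps fl/fl replicate 2, and down to -0.234), and for none of the other 8 under any alternative. The difference in the immunoproteasome share, 1.02 percentage points, was 0.32 as the mean of the 3 pairs and -0.88 (without Dhps fl/fl replicate 1) to 2.92 with a library left out. The deviations of same-numbered libraries from their group means had r = -0.057 over 10629 genes. With 1 such contrast in each genotype, this cannot tell whether same-numbered libraries share a litter or a preparation. The study calls the pups littermates, but the labels match no library to a litter. The cause of the shifts between settings was not tested.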
